A study of Drosophila melanogaster with 3 samples.

Results

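The genes that encode proteins of the large subunit of the cytosolic ribosome were examined for binding of the transcription factor M1BP in whole Drosophila melanogaster embryos. Members were all protein-coding genes of the Ensembl annotation whose names begin with RpL, so that the stalk genes (RpLP), paralogs and genes named -like were included. This rule gave 54 genes of 13945 on the main chromosome arms. Of these, 44 had a thresholded peak summit within 250 bp of a start site and were called bound (81.5%), against 31.1% of all protein-coding genes.

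Chromatin immunoprecipitation followed by sequencing had been carried out on a transgenic fly line that stably expresses CG9797, the gene also called M1BP, fused at its C-terminus to green fluorescent protein. The embryos were 0 to 24 h old, of pooled sexes, and were used whole, so that all tissues and all embryonic stages contributed to each library. There was 1 group, with 3 biological replicates of 1 technical replicate each, and no genotype or treatment was contrasted. The chromatin was sonicated to 200 to 800 bp. The labels state neither the promoter that drives the fusion nor whether the untagged protein was also present. CG9797 is named as the antibody, without saying whether the tag or the protein itself was recognised. The labels conflict: a description line calls these libraries an input control, while the assay title, the antibody and a separate control experiment describe immunoprecipitated libraries, as which they were read. No expression was measured, so the tissue could not be checked against marker genes, and fewer bound cells cannot be told apart from less binding per cell.

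The large ribosomal subunit joins amino acids at its peptidyl transferase centre and releases the growing chain through an exit tunnel, while its stalk recruits translation factors. Its proteins are needed in near equal amounts, and flies with a single working copy of many of these genes develop slowly with short bristles, the Minute phenotype. Transcription of ribosomal protein genes in flies often starts at a pyrimidine-rich TCT initiator. M1BP, which has zinc fingers, recognises Motif 1, an element of the core promoters of many broadly expressed genes.

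The promoters below are picked examples from members of different binding strength, and their marks do not give the shares among members. Each runs from 80 bases before the start site to 20 bases into the transcript, on the strand of the gene, and was read from the NCBI Release 6 genome (dm6). Capitals mark exact matches to TCACACT (the core of Motif 1), to CCACACT (the same core with a different first base), to GGTATTTT, to the DNA replication-related element TATCGATA, and to the TCT initiator, a pyrimidine, then CTTT, then a pair of pyrimidines, within 5 bp of a start site. RpL30 and RpL3 had the strongest peaks, and RpLP1, RpL37-1, RpL24, RpL18, RpL8 and RpL40 are bound genes with a core near the start site. RpL27 has a DNA replication-related element, RpL13A is a strongly bound gene with an initiator as its sole mark, and RpL10, RpL5 and RpL10Aa were not bound.
RpL30 (chr2L:19009287-19009386, minus strand): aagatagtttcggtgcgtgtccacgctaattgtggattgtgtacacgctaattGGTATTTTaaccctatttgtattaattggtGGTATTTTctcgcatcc
RpL3 (chr3R:11221814-11221913, plus strand): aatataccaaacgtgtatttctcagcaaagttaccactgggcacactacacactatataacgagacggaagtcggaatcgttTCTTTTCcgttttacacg
RpLP1 (chr2L:419872-419971, plus strand): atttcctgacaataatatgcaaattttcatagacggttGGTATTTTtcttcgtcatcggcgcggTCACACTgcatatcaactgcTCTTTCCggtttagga
RpL37-1 (chrX:15139348-15139447, minus strand): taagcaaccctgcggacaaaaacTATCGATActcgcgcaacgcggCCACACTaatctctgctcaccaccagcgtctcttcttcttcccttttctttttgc
RpL24 (chr2L:13395112-13395211, minus strand): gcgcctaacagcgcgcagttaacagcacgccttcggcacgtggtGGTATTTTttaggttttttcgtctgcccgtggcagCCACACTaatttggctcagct
RpL18 (chr3L:7241332-7241431, minus strand): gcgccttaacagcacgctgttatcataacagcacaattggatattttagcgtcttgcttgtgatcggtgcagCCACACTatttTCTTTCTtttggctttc
RpL8 (chr3L:2587376-2587475, plus strand): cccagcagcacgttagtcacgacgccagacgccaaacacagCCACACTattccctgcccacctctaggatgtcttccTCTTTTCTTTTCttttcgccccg
RpL40 (chr2L:4227619-4227718, plus strand): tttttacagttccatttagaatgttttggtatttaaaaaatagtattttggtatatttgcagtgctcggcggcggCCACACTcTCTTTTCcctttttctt
RpL27 (chr3R:25685032-25685131, minus strand): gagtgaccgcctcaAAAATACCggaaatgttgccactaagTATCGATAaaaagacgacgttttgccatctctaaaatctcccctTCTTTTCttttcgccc
RpL13A (chr3R:5624394-5624493, plus strand): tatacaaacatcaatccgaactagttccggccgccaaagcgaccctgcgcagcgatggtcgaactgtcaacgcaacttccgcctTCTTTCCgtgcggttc
RpL10 (chr3L:23095452-23095551, minus strand): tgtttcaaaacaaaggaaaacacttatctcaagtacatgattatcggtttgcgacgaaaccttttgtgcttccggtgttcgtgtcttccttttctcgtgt
RpL5 (chr2L:22536865-22536964, minus strand): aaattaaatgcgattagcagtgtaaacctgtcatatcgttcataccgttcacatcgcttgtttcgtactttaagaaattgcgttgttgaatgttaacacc
RpL10Aa (chr3R:15037286-15037385, plus strand): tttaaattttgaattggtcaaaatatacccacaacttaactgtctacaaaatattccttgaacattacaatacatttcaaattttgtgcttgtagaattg

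The cores TCACACT and CCACACT and the element GGTATTTT were picked after these sequences had been seen, so their counts are descriptions. GGTATTTT in RpL27 lies on the strand opposite to the gene and therefore reads AAAATACC. No match in a window says only that these letters are not in it. RpL5 has an initiator at another of its start sites, outside the window shown. Unbound members not shown also carry marks. RpL21 has CCACACT and an initiator, and RpL39 has TATCGATA and an initiator. RpL10Ab has TATCGATA, and RpL38 and RpL37-2 have an initiator. Among all bound members, 13 (29.5%) had either core near the first start site.

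Binding recurred in each replicate. When each replicate's own 4598 strongest entries, as many as the thresholded list holds, were used in place of that list, 47 members were bound in replicate 1 (87.0%; all genes 31.3%), 39 in replicate 2 (72.2%; all genes 28.3%) and 42 in replicate 3 (77.8%; all genes 29.3%). The mean was 79.0% ± 7.48 (SD, n = 3), and in every replicate the share of members bound was above the share of all genes. In all 3 replicates at once 36 members were bound (66.7%; all genes 20.9%). Bound in no replicate were 6 of the 54 members, against 8691 of all 13945 genes. The small-subunit genes (RpS with sta) had a similar share, 31 of 39 in the thresholded list (79.5%) and a mean of 75.2% ± 3.92 (SD, n = 3) over replicates. For the large subunit of the mitochondrial ribosome (mRpL) 28 of 47 genes were bound (59.6%), with a mean of 58.9% ± 10.7 (SD, n = 3).

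**Figure D1:**
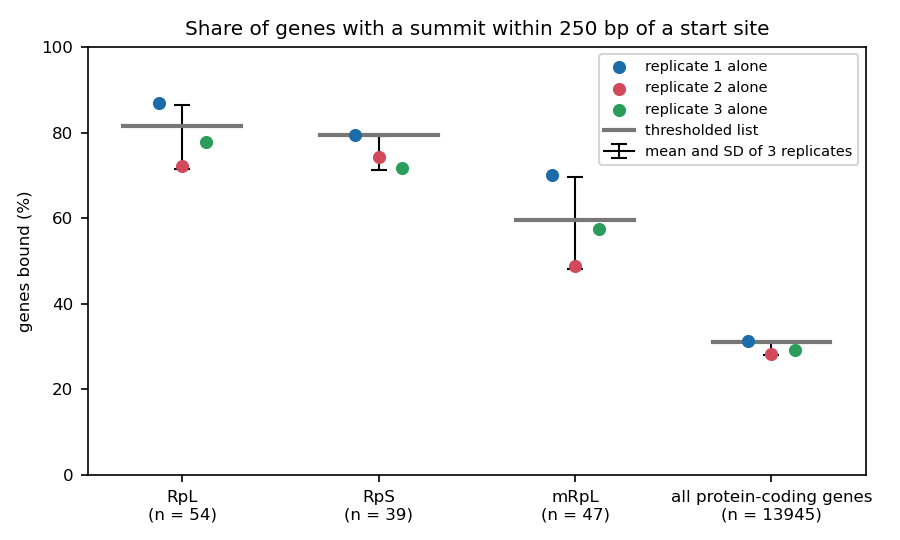
Share of genes bound (y axis, percent) for the RpL genes, the RpS genes, the mRpL genes and all protein-coding genes, as points for each replicate's strongest entries, error bars for the mean and SD of 3 replicates, and grey lines for the thresholded list. The RpL points lie between 72.2% and 87.0%, and those of all genes between 28.3% and 31.3%.

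The peaks at these genes were also strong. The signal value, a score of unstated scale from the authors' peak caller, ran from 270 to 3785 over the 44 bound members, with a median of 1272 and quartiles of 734 and 2361. The median was 927 for bound RpS genes, 572 for bound mRpL genes and 690 for all bound genes. Peaks in the strongest 10% of the thresholded list marked 18 of the 44 (40.9%), compared with 14.5% of all bound genes, 29.0% of bound RpS genes and 3.57% of bound mRpL genes. The median thresholded rank was 686 for members and 1753 for all bound genes.

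**Figure D2:**
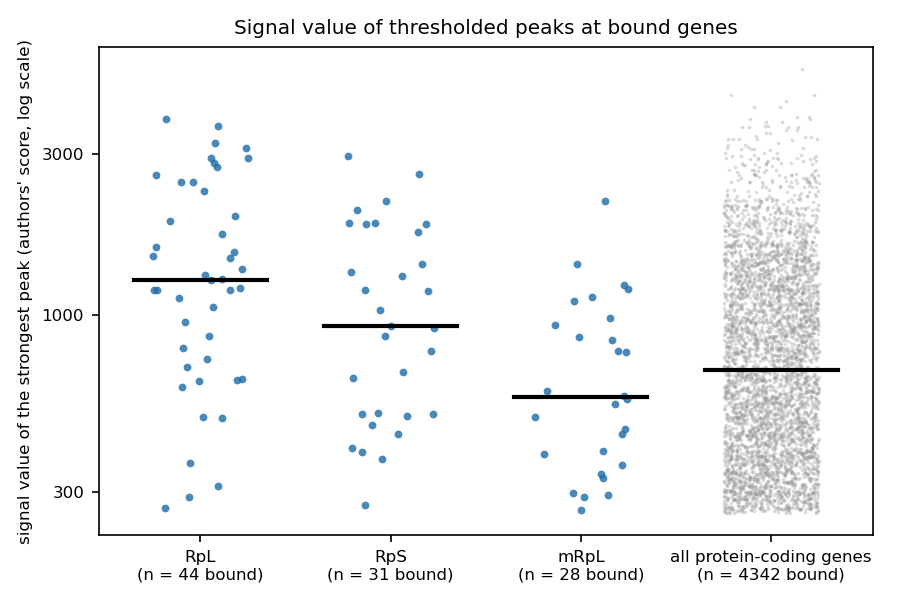
Signal value of the strongest thresholded peak at each bound gene (y axis, log scale), 1 point per gene, with the median as a black line. The RpL genes have a median of 1272, the RpS genes 927, the mRpL genes 572 and all bound genes 690, and the ranges of the 4 lists overlap.

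The ranks of members were similar between replicates. Over members listed in both, the Spearman correlation of ranks was 0.962 between replicates 1 and 3 (n = 48), 0.858 between replicates 1 and 2 (n = 42) and 0.775 between replicates 2 and 3 (n = 39). These points share 1 control file. A member counts as listed when any of the 30000 entries of a replicate's relaxed list, which holds background as well as peaks, has its summit within 250 bp of a start site. This held for 51 members in replicate 1, 42 in replicate 2 and 49 in replicate 3. Over all 13945 genes it held for 7059, 6392 and 6193 in replicates 1, 2 and 3. The median rank of listed members was 992, 469 and 1102 in replicates 1, 2 and 3, and that of all listed genes was 3320, 3160 and 2843.

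**Figure D3:**
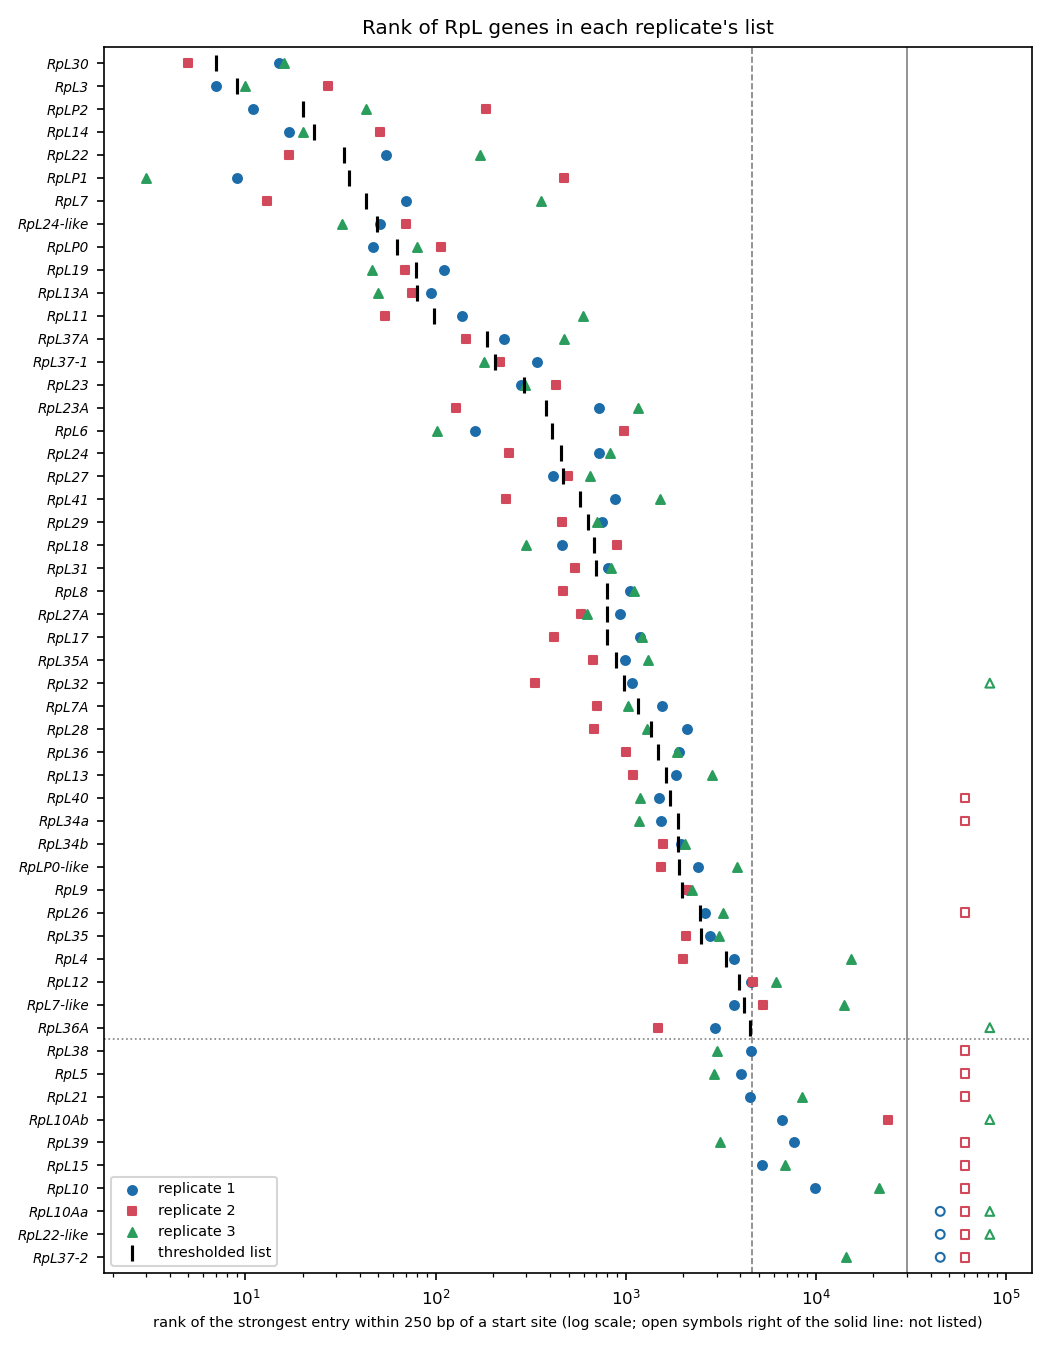
Rank of the strongest entry within 250 bp of a start site (x axis, log scale, 1 is strongest) for 53 of the 54 genes in each replicate, with a black tick for the thresholded list and open symbols on the right for genes a replicate does not list. The dashed line stands at rank 4598, and genes below the dotted line were not bound; RpL30 ranks 15, 5 and 16, and RpL10Aa and RpL22-like are listed in no replicate.

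Each member was assigned to 1 role group, so a group need not hold every gene with that role. The groups are small, and their counts stand beside the 81.5% of all members that were bound. All 4 genes assigned to the stalk and its base were bound, and 3 of them were among the 10 strongest members. RpLP2, an acidic protein that recruits elongation factors, had a signal value of 3214 and thresholded rank 20, and ranked 11, 183 and 43 in replicates 1, 2 and 3. Its summit, at position 16585890 of arm 2R, lay at −239 bp from the start site (negative distances are upstream), the farthest of any member. RpLP2 also had a second thresholded summit, and the strongest entry of replicate 3 lay at −54 bp. RpLP1, its partner in the stalk dimers, had a signal value of 2905 and thresholded rank 35, with its summit at position 419826 of arm 2L, at −126 bp. Its ranks differed most between replicates among the strongest members, at 9, 471 and 3. RpLP0, the stalk protein that anchors these dimers to ribosomal RNA, had a signal value of 2597 and thresholded rank 63, and ranked 47, 107 and 80, with its summit at position 22076026 of arm 3L. RpL12, at the base of the stalk, was far weaker, with a signal value of 313, and its ranks of 4546, 4658 and 6154 fell on both sides of the limit of 4598.

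The 4 genes assigned to bridges to the small subunit were all bound, with signal values from 1372 to 3785. RpL30 had the strongest peak of all members. Its signal value was 3785 and its thresholded rank 7, with the summit at position 19009342 of arm 2L, at −36 bp, and it ranked 15, 5 and 16 in the replicates. RpL23, RpL24 and RpL41 followed with signal values of 1736, 1493 and 1372. All 3 ranked within the strongest 1505 entries of every replicate.

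At the peptidyl transferase centre and the tRNA sites, 4 of 5 genes were bound. RpL3, whose protein reaches towards the catalytic centre, was the second strongest member. Its signal value was 3627 and its thresholded rank 9, the summit lay at position 11221740 of arm 3R at −154 bp, and it ranked 7, 27 and 10. RpL8 and RpL40, which is made as a fusion to ubiquitin, had signal values of 1190 and 704. RpL40 had thresholded rank 1714, with its summit at position 4227728 of arm 2L and 29 bp inside the transcript. It ranked 1502 and 1194 in replicates 1 and 3 and was not listed in replicate 2. RpL36A was the weakest bound member, with a signal value of 270, thresholded rank 4478 and the single summit in a coding exon, at position 8042825 of arm 2L. It ranked 2947 and 1473 in replicates 1 and 2 and was not listed in replicate 3. RpL10, which contacts the incoming tRNA, was not bound. It ranked 9884 in replicate 1 and 21378 in replicate 3, and was absent from the lists of replicate 2 and of the pooled reads.

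Of the 10 genes for the exit tunnel and its rim, 8 were bound, with a median signal value of 1227. RpL22 was the strongest, with a signal value of 2913, thresholded rank 33 and its summit at position 765228 of arm X, at −98 bp. It ranked 55, 17 and 171. RpL19 had a signal value of 2465, thresholded rank 79 and ranks of 110, 69 and 46, with its summit at position 24969658 of arm 2R. These were among the 10 strongest members, and RpL23A, RpL31 and RpL17 followed with signal values of 1585, 1267 and 1186. RpL26, RpL35 and RpL4 were weaker, at 502, 496 and 365. RpL26 had thresholded rank 2461, with its summit at position 18899081 of arm 3L, and ranked 2600 and 3255 in replicates 1 and 3 without being listed in replicate 2. RpL4 had ranks of 3700 and 2010 in replicates 1 and 2, and fell to 15361 in replicate 3. RpL38 and RpL39 were not bound. RpL38 was the strongest unbound member, at rank 4750 of the pooled list, and ranked 4567 and 2998 in replicates 1 and 3. RpL39 ranked 7683 and 3127 there and 6932 in the pooled list. Neither was listed in replicate 2.

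The partner proteins that carry 5S ribosomal RNA into the subunit differed. RpL11 was bound with a signal value of 2327 and thresholded rank 98, and ranked 138, 54 and 595. RpL5 was not bound, at rank 4804 of the pooled list. It ranked 4023 and 2924 in replicates 1 and 3, inside the strongest 4598 of each, and was not listed in replicate 2. The single gene assigned to the L1 stalk, RpL10Ab, was not bound either, with ranks of 6630 and 23843 in replicates 1 and 2, no listing in replicate 3 and pooled rank 6154.

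Of the other 19 core proteins, 17 were bound, with signal values from 615 to 3110. RpL14 and RpL7 were among the 10 strongest members. RpL14 had a signal value of 3110 and thresholded rank 23, with its summit at position 8600932 of arm 3L at −74 bp, and ranked 17, 51 and 20. RpL7 had a signal value of 2814 and thresholded rank 43, with its summit at position 10201028 of arm 2L, 24 bp inside its 5′ UTR, and ranked 70, 13 and 359. RpL13A had nearly the same signal value as RpL19, 2465, at thresholded rank 80. Lower down, but above 1000, stood RpL37A, RpL6, RpL27, RpL29, RpL18, RpL27A, RpL35A and RpL32. RpL6 and RpL18 stood higher in replicates 1 and 3 than in replicate 2: RpL6 ranked 162 and 102 against 981, and RpL18 ranked 459 and 298 against 896. RpL32, a gene often used as a reference in expression assays, had thresholded rank 980, with its summit at position 30046287 of arm 3R. It ranked 1079 and 332 in replicates 1 and 2 and was not listed in replicate 3. Below 1000 stood RpL7A, RpL28, RpL36, RpL13 and RpL9, at 956, 868, 803, 744 and 615. RpL15 and RpL21 were not bound. RpL15 ranked 5200 and 6841 in replicates 1 and 3 and 7287 in the pooled list, and RpL21 ranked 4514, 8437 and 6132 there. Replicate 2 listed neither.

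Members of the 7 pairs with a shared name stem ranged from thresholded rank 33, for RpL22, to no listing at all. The coding sequences of RpL34a and RpL34b were the most alike, identical over 73.6% of the longer sequence, and both genes were bound with nearly equal signal values of 648 and 645. RpL34a ranked 1535 and 1168 in replicates 1 and 3 and was not listed in replicate 2, while RpL34b ranked 1947, 1565 and 2057. Their thresholded ranks were 1872 and 1880, with summits at positions 26059365 and 9401289 of arm 3R. In RpL37-1 and RpL37-2 (68.1%) the copies differed. RpL37-1 was bound with a signal value of 1892 and thresholded rank 206, its summit at position 15139467 of arm X, and ranked 342, 219 and 180. RpL37-2 was not bound, and its sole listing was at rank 14397 in replicate 3. RpL10Aa, which like RpL10Ab (65.1%) was not bound, was listed in no replicate.

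RpL22-like, the germline-enriched copy of RpL22 (53.2%), was listed in no replicate, whereas RpL22 was among the strongest members. The 3 other genes named -like are related to ribosome assembly factors of yeast rather than being second copies. RpL24-like had a signal value of 2741 and thresholded rank 49, above the 1493 of RpL24, and ranked 51, 70 and 32. Its summit, at position 11431749 of arm 3R, lay 11 bp from the start site of CG5276, so the peak cannot be assigned to either gene. RpLP0-like had a signal value of 641 and thresholded rank 1897, ranked 2402, 1527 and 3820, and had its summit at position 10099682 of arm 2R, 5 bp from the start site of 14-3-3zeta. RpL7-like was weak, with a signal value of 292 and thresholded rank 4194, and ranked 3712, 5253 and 14106, with its summit at position 12056287 of arm 2L. Their coding sequences matched those of RpL24, RpLP0 and RpL7 over 44.9%, 39.9% and 49.0% of the longer sequence. The median over the 1424 other pairs of members was 35.8% (4.65% to 59.3%). This measure replaced a first one, identity over aligned bases with gaps left out, after its values had been seen: by the first, the 7 pairs had 59.2% to 81.6% and the other pairs a median of 66.5%, which RpL34a with RpL34b and RpL37-1 with RpL37-2 alone exceeded.

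Summits lay just upstream of the start sites. The median distance was −65.5 bp, from −239 to 34 bp, and 37 of 44 summits were upstream (84.1%; all bound genes 84.3%). Between protein-coding genes lay 30 summits, with 7 in the 5′ UTR of the member, 3 in an intron of it, 3 in another gene and 1 in a coding exon. RpLP2, RpL27A, RpL7A and RpL36 had more than 1 thresholded summit within 250 bp. At 7 bound members another gene's start site was nearer to the summit, among them RpL3, RpL14, RpL24-like, RpL19, RpL29 and RpLP0-like. At these 6 the nearest sites were those of CG6693 at 101 bp, Nelf-E at 53 bp, CG5276 at 11 bp, CG3776 at 20 bp, Sgf29 at 52 bp and 14-3-3zeta at 5 bp. The summit locations, repeated summits and nearer genes are given for members alone, so they are not shown to be particular to members.

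Many members share their promoter region with another gene, as do many RpS genes (56.4%) and mRpL genes (78.7%). An opposite-strand start site of another protein-coding gene lay within 1000 bp upstream of 34 of the 54 (63.0%; all genes 35.2%). Of these 34, 31 were bound (91.2%; all genes with such a partner 56.0%), and of the 20 without a partner 13 were bound (65.0%; all genes without 17.6%). Bound members without a partner had a median signal value of 1585, and those with one 1128. Both with and without a partner, the share of members bound was above that of all genes of the same arrangement.

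**Figure D4:**
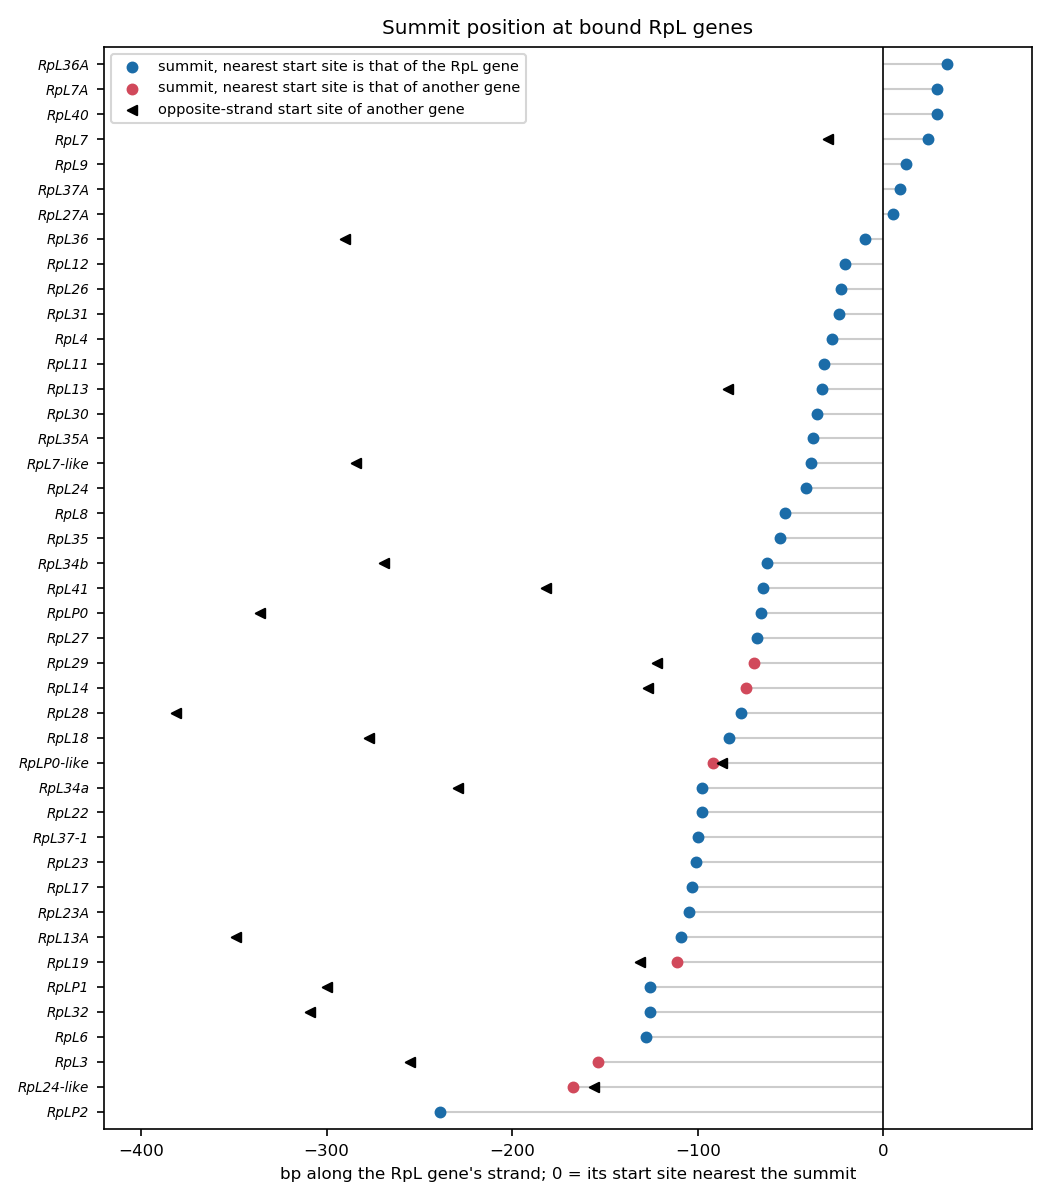
Position of the thresholded summit (points) along the strand of 43 of the 44 bound RpL genes (x axis, bp from the start site nearest the summit), with triangles for the opposite-strand start site of a neighbouring gene where it lies within the plotted range. Most summits lie upstream, from −239 to 34 bp, and red points mark genes at which another gene's start site is nearer.

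Exact Motif 1 matches were infrequent at summits, both at bound members and at all bound genes. An exact match, searched on both strands, lay within 100 bp of the summit at 4 of 44 bound members (9.09%; all bound genes 13.2%), which were RpL7, RpLP0, RpL27 and RpL27A. With up to 1 mismatch there were 13 (29.5%; all bound genes 33.9%). The 13 had a median signal value of 2465 and the other 31 one of 1058. Among all bound genes the medians were 1096 with a match and 532 without. In RpLP1, shown above, an exact match is centred 14 bp before the start site and more than 100 bp from the summit.

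Other elements were counted on both strands within 100 bp of each gene's first start site, the most upstream. CCACACT was found at 10 of 54 members (18.5%; all genes 3.34%; all bound genes 6.93%). These were RpLP2, RpL11, RpL37-1, RpL24, RpL18, RpL31, RpL8, RpL35A, RpL40 and the unbound RpL21. The 10 matches were centred from −36 to 2 bp of the start site with a median of −7 bp, and 9 of them lay on the strand of the gene. Among RpS genes 10.3% had CCACACT near the first start site, and among mRpL genes 12.8%. Within 100 bp of the summit it lay at 18.2% of bound members, 6.45% of bound RpS genes and 17.9% of bound mRpL genes. The share for all bound genes was 7.42%. TCACACT, which is part of Motif 1, was found at 4 members (7.41%; all genes 7.79%; all bound genes 19.0%). GGTATTTT was found at 6 (11.1%; all genes 4.08%; all bound genes 9.70%; RpS genes 15.4%). TATCGATA was found at 14 (25.9%; all genes 7.84%; all bound genes 14.7%), and at 33.3% of RpS and 23.4% of mRpL genes. Of the 14 members with TATCGATA 12 were bound, and of the 40 without it 32 were bound. Among all genes, 638 of the 1093 with TATCGATA were bound. TATAAA was found at 11 (20.4%; all genes 29.2%; all bound genes 23.6%) and the E-box CAGCTG at 3 (5.56%; all genes 13.8%; all bound genes 18.7%; mRpL genes 53.2%). Ohler motif 6 was found at 3 (5.56%; all genes 1.67%; all bound genes 4.35%) and Ohler motif 7 at 1 (1.85%; all genes 7.58%; all bound genes 14.6%). These shares of members are over all 54, bound or not. Over bound members alone they were 20.5% for CCACACT, 9.09% for TCACACT, 13.6% for GGTATTTT and 27.3% for TATCGATA. For TATAAA, the E-box and Ohler motifs 6 and 7 they were 15.9%, 4.55%, 6.82% and 2.27%.

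The TCT initiator, searched on the gene's strand within 5 bp of any start site, was present at 31 members (57.4%), at 59.0% of RpS genes, at 4.26% of mRpL genes and at 1.31% of all genes. Of the 31, 26 were bound, and of the 23 without it 18 were bound. Among all genes, 48.1% of the 183 with the initiator and 30.9% of those without were bound, and the 183 include the 31 members. The unbound members with an initiator were RpL5, RpL21, RpL37-2, RpL38 and RpL39. Bound members had a median signal value of 1242 with the initiator and 1319 without. The signal values of members with and without it overlapped.

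Among members, replicate 2 accounted for most missing entries. Over all genes replicate 3 listed the fewest, 6193 against 6392 in replicate 2 and 7059 in replicate 1. Replicate 2 did not list 12 members within 250 bp, of which 9 were listed in replicates 1 and 3: RpL40, RpL34a, RpL26, RpL10, RpL15, RpL21, RpL38, RpL39 and RpL5. The GC content within 100 bp of the summit, or of the start site where no summit was called, had a median of 34.6% over the 12 (28.4% to 43.3%) and 42.3% over the other 42 (30.8% to 56.2%). Of the 42 listed members 41 were bound, so their values are mostly from summits, while most of the 12 were unbound and measured at the start site. The comparison is therefore largely that of bound with unbound members, whose medians were 42.3% and 35.3%. Over all genes the median of this GC content was 40.8%. RpLP1 at 32.8%, RpLP2 at 31.8% and RpL6 at 30.8% were low in GC content and listed in replicate 2. The part of base composition in the missing entries was not tested.

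**Figure D5:**
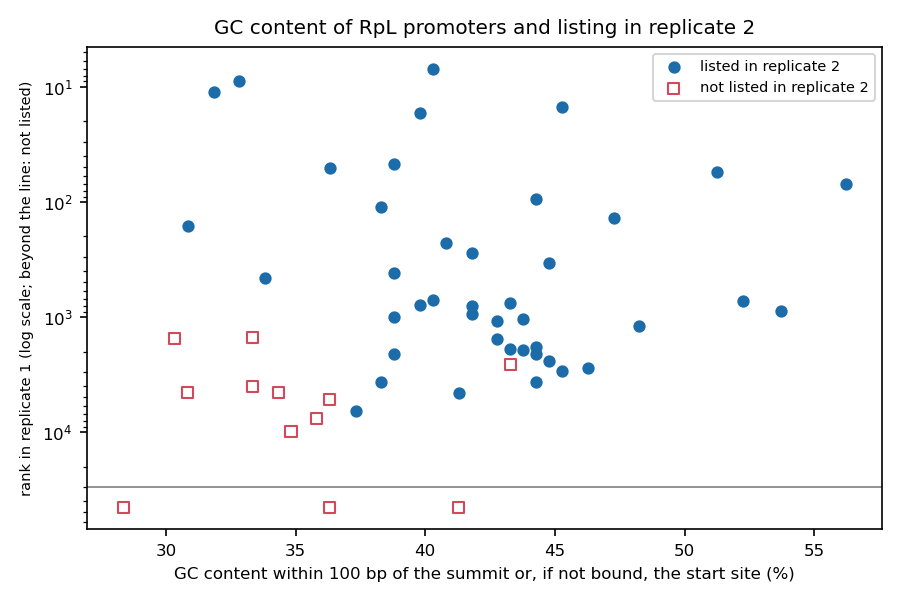
GC content (x axis, percent) and rank in replicate 1 (y axis, log scale, strongest at the top) of the 54 genes, with open squares for the 12 that replicate 2 does not list and points below the line for genes that replicate 1 does not list. The squares have a median GC content of 34.6% and the filled points one of 42.3%, and the ranges overlap. Bound genes were measured at the summit and unbound genes at the start site.

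The unbound members were unevenly placed along the chromosomes. By arm, 11 of 13 were bound on 2L (all genes 28.3%), 10 of 14 on 2R (all genes 31.2%), 7 of 10 on 3L (all genes 31.6%), 10 of 11 on 3R (all genes 32.2%) and 6 of 6 on X (all genes 33.1%). RpL15, RpL5, RpL21, RpL38 and RpL10 lay 0.843, 0.977, 1.27, 4.52 and 5.01 Mb from the centromere-proximal end of the assembled arm. Within 5.1 Mb of that end, a limit chosen after these positions had been seen, 1 of 6 members was bound (all genes there 25.4%), and outside it 43 of 48 (89.6%; all genes there 31.6%). The bound member was RpL30, at 4.50 Mb. By each replicate's strongest entries, 4 of these 6 were bound in replicate 1, 1 in replicate 2 and 3 in replicate 3. Of all genes there, 26.3%, 23.7% and 23.1% were bound by these entries in replicates 1, 2 and 3. The share of members was thus above that of all genes there in replicates 1 and 3, and below it in replicate 2.

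Several members hold other genes within their bounds. Small nucleolar RNA genes, which guide chemical modification of ribosomal RNA, lie on the same strand within 16 of the 54 (29.6%). Such genes lie within 0.602% of all genes and 33.3% of RpS genes. The members hold 33 of them in all. RpL28 holds 5 of them, and RpL3, RpL23A and RpL17 hold 4 each. Of the 16 host genes 13 were bound, near the 81.5% of all members, and RpL10Ab, RpL15 and RpL5 were not. The share bound over all 84 genes that host them was not counted.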

How the data were processed

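Peak lists were deposited by the authors on assembly dm6: a relaxed list for each of the 3 replicates, a relaxed list from the pooled reads, and a list thresholded by irreproducible discovery rate. Per the deposited notes, each relaxed list was called against 1 control file shared by the replicates. No label or note used here names the aligner, peak caller or thresholds. The deposited signal value is a score of the authors' peak caller, used only within 1 list. The deposited −log10 q-value reaches a ceiling at 43 of the 44 bound members and was not used to rank. The deposited summit is an offset in bp from the interval's start. The lists hold no read counts, so the depth of each replicate is unknown.

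Summits were joined to all start sites of 13945 protein-coding genes (Ensembl release 115, BDGP6) on 6 arms, and sequence was read from the NCBI Release 6 genome, whose arms hold all peak ends. In each replicate the 4598 strongest entries were used to measure the spread. The members, role groups, motifs and lists were chosen with earlier results of these data known, and shares are given beside those of all genes with no test. Every member but 1, which is counted but not reported by name here, is named. Full values go to the 10 strongest bound members, all unbound members, paralogs and -like genes, the weakest bound member and members that a replicate does not list. No protein table was used: the planned comparison of paralog proteins was made on coding sequences aligned with biopython 1.88. The identity measure was changed after its first values had been seen, and both are reported. Alternatives were the window, start sites, peak threshold, mismatches, shared promoters and left-out replicates. The joining and motif search were tested on simulated data. The tools were pandas 2.3.3 and numpy 2.4.6 under Python 3.11.15, with matplotlib 3.10.9 for plots.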

Additional observations from a re-analysis of the deposited data

How the results depend on the processing

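The share of members bound, 81.5%, stayed within the spread between replicates (SD 7.48 percentage points) with a window of 500 bp (81.5%), with interval overlap, with the most upstream start site alone (79.6%), without -like genes (82.0%) and in replicates 1 and 3 alone. It moved to 61.1% with a window of 100 bp (all genes 23.3%), which drops 11 members with summits farther upstream. It moved to 70.4% with peaks above the median signal value (all genes 19.5%), to 65.0% without shared promoters (all genes 17.6%) and to 72.2% in replicate 2 alone. Leaving out 1 replicate gave 59.3% to 68.5%, where all genes had 17.4% to 24.2%. That setting also required the thresholded summit to lie within 100 bp of a summit among the strongest entries of both remaining replicates. It therefore differs from the count bound in all 3 replicates (66.7%, all genes 20.9%), which needs no match between summits. RpL18, RpL32, RpL12, RpL7-like and RpL36A were lost each time. Of 2 alternatives added after seeing the data, the strongest entries of at least 2 replicates gave 81.5%, and leaving out genes near the centromere-proximal ends gave 89.6%. The median signal value of 1272 moved to 1128 with 100 bp, to 1585 without shared promoters and to 1423 to 1484 with a replicate left out. The median summit distance of −65.5 bp was −41 bp by the summits of replicate 2 and −63 and −77 bp by those of replicates 1 and 3. The share with exact Motif 1 at the summit, 9.09%, was 29.5% with up to 1 mismatch, 13.6% within 250 bp and 10.8% to 12.5% with a replicate left out. Where no further cause is named, the cause was not tested. No paired analysis was possible because there is 1 group.

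The depth is unknown, so a member that a replicate does not list is not shown to lack binding. RpL38 and RpL5, just outside the thresholded list, had pooled signal values of 252 and 249, and RpL36A, just inside it, had 270. Peaks shared with a neighbouring gene cannot be assigned to either.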
